A study of Mus musculus with 21 samples.

Results

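The 10 genes described here mark macrophages or serve their uptake of debris and lipid, and they were followed through a series of whole-tumor expression profiles. They are Csf1r, Emr1, Cd68, Cybb, Lyz2, Arg1, Mrc1, Cd163, Msr1 and Cd36, which are 10 of the 750 probes of the NanoString mouse panel, a hybridization assay that counts RNA molecules with barcoded probes. They were chosen by name, as genes of the macrophage lineage and of scavenging, and were divided into 5 genes used as general macrophage markers (Csf1r, Emr1, Cd68, Cybb, Lyz2), 4 genes of activation state and scavenging (Arg1, Mrc1, Msr1, Cd36) and Cd163. The 21 libraries were total RNA of whole tumors grown in the flank from LLC (Lewis lung carcinoma), a mouse line derived from lung cancer. The hosts were male C57BL/6 mice, although the tissue label reads lung. The wild-type sham group has 9 libraries (wild-type host, tumor injected with PBS), the wild-type agonist group has 8 (wild-type host, tumor injected with STING agonist, given as cGAMP in the series text) and the STING-deficient sham group has 4 (host with both copies of Tmem173 carrying the goldenticket allele, TMEM173(gt/gt), tumor injected with PBS). Tmem173 encodes STING, the adaptor of cytosolic DNA sensing. The allele is in the host, so the implanted LLC cells, which all 3 groups share, keep their own gene, and no agonist-treated STING-deficient group is among the libraries. The labels give neither the age of the mice nor the time of harvest, and they do not say whether each library is another mouse, so a p-value here measures spread between libraries that may be technical.

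Macrophages depend on the growth factor receptor encoded by Csf1r and share a set of surface and lysosomal proteins wherever they live. In tumors they arise in large part from recruited blood monocytes, and they are known for a range of states, from inflammatory cells that make reactive oxygen and present antigen to cells that scavenge matrix, lipoproteins and dying cells. Arg1, Mrc1 and Cd163 are widely used labels of the second kind of state, while Msr1 and Cd36 are scavenger receptors that bind modified lipoproteins. None of these genes is restricted to macrophages. Neutrophils also use Cybb and Arg1, endothelial cells, platelets and adipocytes use Cd36, and lymphatic and liver sinus endothelium uses Mrc1.

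The promoters of 6 of the 10 genes were matched by symbol in the RefSeq table of build GRCm38.p6 (Mrc1, Cd36, Cd163, Lyz2, Cd68, Cybb). The 250 bases before the transcription start are printed for 3 general macrophage genes that were higher after agonist under the authors' scaling and for 2 scavenging genes that did not pass that test, so that the 2 sets can be read side by side. They are Cybb at chrX:9469325-9469574 (minus strand), Cd68 at chr11:69666171-69666420 (minus strand), Lyz2 at chr10:117282273-117282522 (minus strand), Mrc1 at chr2:14229164-14229413 (plus strand) and Cd163 at chr6:124304401-124304650 (plus strand), and each is written 5′ to 3′ on the gene's strand. The search covered 3 motifs on both strands, namely GAGGAA (the core bound by the myeloid factor PU.1), the core of the interferon-stimulated response element (TTTC, any 2 bases, TTTC) and the core of a STAT site (TTC, any 3 bases, GAA). Capitals mark the matches, none of which overlap.
Cybb: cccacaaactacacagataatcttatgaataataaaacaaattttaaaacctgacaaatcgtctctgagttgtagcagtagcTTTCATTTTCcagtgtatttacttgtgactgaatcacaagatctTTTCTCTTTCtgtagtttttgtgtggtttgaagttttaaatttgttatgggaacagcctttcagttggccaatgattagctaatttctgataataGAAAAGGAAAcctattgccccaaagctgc
Cd68: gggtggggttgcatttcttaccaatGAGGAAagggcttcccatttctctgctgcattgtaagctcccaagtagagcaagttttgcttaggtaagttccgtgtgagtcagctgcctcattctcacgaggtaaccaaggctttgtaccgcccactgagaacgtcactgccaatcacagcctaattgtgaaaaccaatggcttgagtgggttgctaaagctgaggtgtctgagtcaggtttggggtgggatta
Lyz2: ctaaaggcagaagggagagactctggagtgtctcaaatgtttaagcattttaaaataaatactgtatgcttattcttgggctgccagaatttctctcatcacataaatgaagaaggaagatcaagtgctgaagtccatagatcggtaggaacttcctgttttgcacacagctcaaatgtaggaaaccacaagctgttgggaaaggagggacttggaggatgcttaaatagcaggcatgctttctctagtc
Mrc1: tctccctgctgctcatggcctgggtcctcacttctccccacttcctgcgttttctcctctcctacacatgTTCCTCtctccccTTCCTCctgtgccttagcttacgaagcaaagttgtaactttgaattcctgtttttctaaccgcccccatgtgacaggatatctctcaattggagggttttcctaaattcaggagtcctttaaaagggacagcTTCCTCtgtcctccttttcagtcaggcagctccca
Cd163: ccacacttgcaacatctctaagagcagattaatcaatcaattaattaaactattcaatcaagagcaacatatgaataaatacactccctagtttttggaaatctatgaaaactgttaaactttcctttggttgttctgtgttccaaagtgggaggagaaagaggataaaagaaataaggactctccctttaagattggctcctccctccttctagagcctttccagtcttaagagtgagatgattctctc
The Cybb window held 3 matches to the interferon-stimulated core, which begin 168, 124 and 29 bases before the start, and no other of the 6 members held one, where 2.98% of 32851 RefSeq promoter windows of the same length did. The Mrc1 window held 3 matches to GAGGAA on the opposite strand, which begin 180, 167 and 35 bases before the start, and the Cd68 window held 1, where 23.3% of all windows did. No window of the 6 members held the STAT core, which 7.02% of all windows did. A match describes letters in a window and is not a site of binding.

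The deposited values are normalised signal on a linear scale that the authors set for each library. The values of all probes summed to between 240633 and 299484 in the wild-type sham libraries, 249154 and 888242 in the agonist libraries and 225810 and 286507 in the STING-deficient libraries, so a general upward shift of the agonist libraries is part of every comparison with them. TMM scaling (trimmed mean of M values, which sets most probes of a library level with those of the others) was therefore run beside the authors' scaling, and it moved the median log2 difference between agonist and wild-type sham over all tested probes from 0.98 to 0.10. It takes most probes as unchanged, so on a panel of chosen genes it would also remove a true rise shared by most of them. A gene that stayed level would then read as lower. No control probes are known here, so which scaling is nearer to the tumors was not tested. Agonist replicates 6, 7 and 8 were written with fewer decimals than the other libraries and had the highest Csf1r values of the group, so results are also given without them. Tmem173 itself read 54.2 ± 11.1 (SD) over the 9 wild-type sham libraries, 115 ± 74.2 over the 8 agonist libraries and 50.4 ± 12.8 over the 4 STING-deficient libraries, so the probe did not separate the STING-deficient libraries, and the point mutation need not alter the RNA it detects. All 10 macrophage genes were above the limit for testing in every library, with a lowest value of 86.6, and all 10 were tested. Among 13 macrophage and monocyte markers, all on the panel, Cd14 and Ccr2 had means under 20, and none was at 0. No deposited value of any probe was 0, the lowest being 0.677. The absence of zeros therefore says nothing about detection, here or for the marker lists below. NanoString values of different genes depend on their probes, so only the same gene is compared between libraries. In RNA of whole tumors, fewer cells of a type and less RNA per cell cannot be told apart.

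The first comparison asks how macrophage genes differed after injection of the agonist in wild-type hosts. All 5 general macrophage genes were higher under the authors' scaling, by 1.82-fold (Cd68) to 2.79-fold (Csf1r), as were the scavenger receptors Msr1 and Cd36, and none of the 7 passed the test as higher under TMM scaling. Arg1, Mrc1 and Cd163 did not pass the test under the authors' scaling. These 7 of 10 calls stand against 71.1% of the 689 tested probes called higher (limma, adjusted p under 0.05), and the median log2 fold change of the 10 genes was 0.90, beside 0.98 over all tested probes, so the share of members called was near the background of the panel. Adjusted p-values are from limma, with Benjamini-Hochberg adjustment over all 689 tested probes, and fold changes are on the log2(value + 1) scale.

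**Figure D1:**
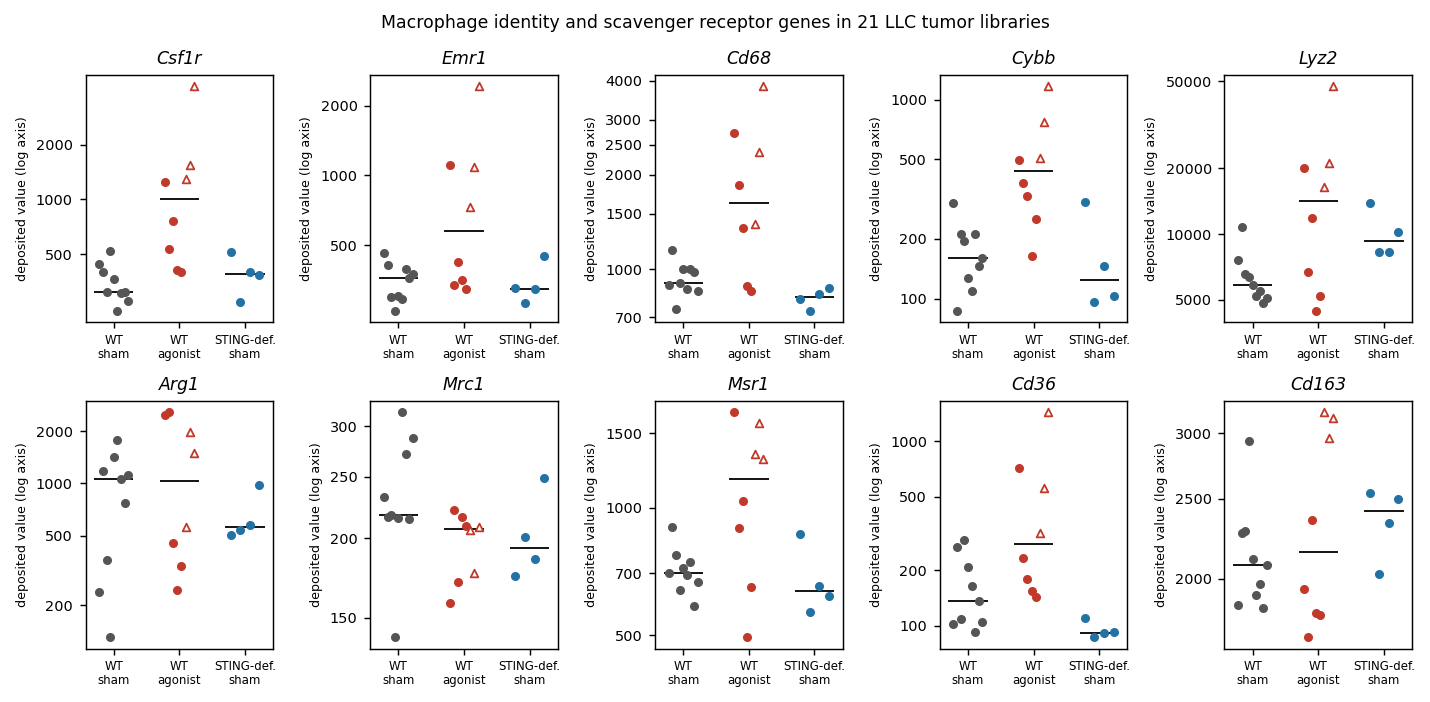
Deposited normalised value of each of the 10 genes in every library on a log axis, by group, with a bar at the group median; open triangles are agonist replicates 6 to 8 and other libraries are filled circles. Csf1r reached 4223 in agonist replicate 8 against at most 522 in wild-type sham, while all 8 agonist values of Mrc1 (158 to 222) lay within the wild-type sham range of 140 to 316.

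Csf1r encodes the receptor for the macrophage growth factors CSF1 and IL-34. In the wild-type sham libraries its lowest, median and highest values were 243, 310 and 522, and in the agonist libraries they were 400, 1003 and 4223. All 8 agonist libraries lay above the wild-type sham mean of 352, 6 lay above the highest sham library, and replicates 4 and 5 (410 and 400) lay inside the sham range. Csf1r had the highest log2 fold change of the 10 genes, 1.48 (SE 0.35, adjusted p = 0.00295), and it fell to 0.58 with TMM scaling (adjusted p = 0.0747).

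Emr1, named Adgre1 in RefSeq, encodes F4/80, the surface receptor used to stain mouse macrophages. Its lowest, median and highest values were 259, 360 and 462 in wild-type sham and 323, 578 and 2442 in agonist libraries. The groups overlapped, since 4 agonist libraries exceeded the highest sham library and replicates 2, 3, 4 and 5 (336, 423, 351 and 323) did not. Emr1 was 1.91-fold higher (log2 0.93, SE 0.32, adjusted p = 0.0157), and TMM scaling left a log2 difference of 0.027 (adjusted p = 0.939).

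Cd68 encodes a glycoprotein of late endosomes and lysosomes. It ran at 747, 901 and 1153 (lowest, median, highest) in wild-type sham and at 851, 1627 and 3857 in agonist libraries. Every sham library was exceeded by 6 of the 8 agonist libraries, and replicates 4 and 5 (884 and 851) lay below the sham mean of 932. The log2 fold change was 0.87 (SE 0.24, adjusted p = 0.00501), and with TMM scaling the sign turned, to -0.038 (adjusted p = 0.878).

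Cybb encodes gp91phox, the catalytic subunit of the phagocyte NADPH oxidase. Its wild-type sham values were 86.8, 159 and 303 (lowest, median, highest) and its agonist values 164, 440 and 1172. The highest sham library was exceeded by 6 agonist libraries, and replicates 4 and 5 (164 and 253) again stayed within the sham range. This made Cybb 2.66-fold higher (log2 1.41, SE 0.34, adjusted p = 0.00299), and 0.51 with TMM scaling (adjusted p = 0.118).

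Lyz2 encodes lysozyme M, the antibacterial enzyme of myeloid cells, and Lyz1 is a close relative whose share in this probe's signal was not tested. The wild-type sham values were 4864, 5847 and 10743 (lowest, median, highest), and the agonist values 4450, 14154 and 47652. Sham replicate 2 was the highest of its group and 5 agonist libraries exceeded it, while agonist replicate 4 was below every sham library. Lyz2 was 2.01-fold higher (log2 1.01, SE 0.36, adjusted p = 0.0173), and the log2 difference was 0.10 with TMM scaling (adjusted p = 0.782).

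Among the 4 genes of activation and scavenging, the 2 scavenger receptors were higher under the authors' scaling and Arg1 and Mrc1 did not pass the test. Arg1 encodes arginase 1, which breaks down arginine and is induced by IL-4 and IL-13. Its wild-type sham values ran from 131 to 1784 with a median of 1053, a 13.7-fold range, and the agonist values from 244 to 2568 with a median of 1032. Both groups held libraries with low values (sham replicates 1, 3 and 4 at 239, 362 and 131, and agonist replicates 3, 4 and 5 at 454, 244 and 336). Agonist replicates 1, 2 and 7 (2457, 2568 and 1974) exceeded the highest sham library and the other 5 lay inside the sham range. Its log2 fold change of 0.39 (SE 0.55, adjusted p = 0.536) was smaller than its error, and with TMM scaling it was -0.52 (adjusted p = 0.422).

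Mrc1 encodes the mannose receptor CD206, which takes up glycoproteins and collagen fragments. Its wild-type sham values were 140, 218 and 316 (lowest, median, highest), and the 8 agonist values lay between 158 and 222 with a median of 207. None of the 8 agonist libraries exceeded the sham mean of 235, and replicate 8, which had the highest value of all 5 general macrophage genes, read 208. Its log2 fold change was -0.23 (SE 0.15, adjusted p = 0.172) under the authors' scaling. With TMM scaling it was -1.13 (adjusted p = 0.00848), and Mrc1 passed the test as lower.

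Msr1 encodes scavenger receptor A, which binds modified lipoproteins and bacterial surfaces. Its wild-type sham values were 585, 703 and 902 (lowest, median, highest) and its agonist values 495, 1171 and 1683. Of the agonist libraries 5 exceeded the highest sham library, replicate 4 lay below the lowest, and replicate 1 had the highest value of the group. Msr1 was 1.47-fold higher (log2 0.55, SE 0.21, adjusted p = 0.0226) and the sign turned with TMM scaling, to -0.35 (adjusted p = 0.0747). The call was lost without agonist replicate 1 or without agonist replicate 7, where the adjusted p reached 0.0557.

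Cd36 encodes a scavenger receptor for oxidised lipoproteins, fatty acids and thrombospondin. The wild-type sham values were 93.0, 136 and 293 (lowest, median, highest), and the agonist values 143, 277 and 1438. Agonist replicates 1, 6, 7 and 8 exceeded the highest sham library and the other 4 lay inside the sham range. Cd36 was 2.24-fold higher (log2 1.16, SE 0.39, adjusted p = 0.0140), and 0.26 with TMM scaling (adjusted p = 0.499).

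Cd163 encodes the receptor for haptoglobin-bound haemoglobin. Its wild-type sham values were 1844, 2079 and 2936 (lowest, median, highest) and its agonist values 1698, 2151 and 3182. Agonist replicates 6, 7 and 8 (3182, 2958 and 3126) lay above every sham library and replicates 2, 4 and 5 (1698, 1814 and 1807) below every sham library. The log2 fold change was 0.11 (SE 0.15, adjusted p = 0.521), and with TMM scaling it was -0.79 (adjusted p = 0.0101), so Cd163 passed as lower. Mrc1 and Cd163 were the 2 members called with TMM scaling, both lower, beside 9% of tested probes called higher and 18% called lower.

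**Figure D2:**
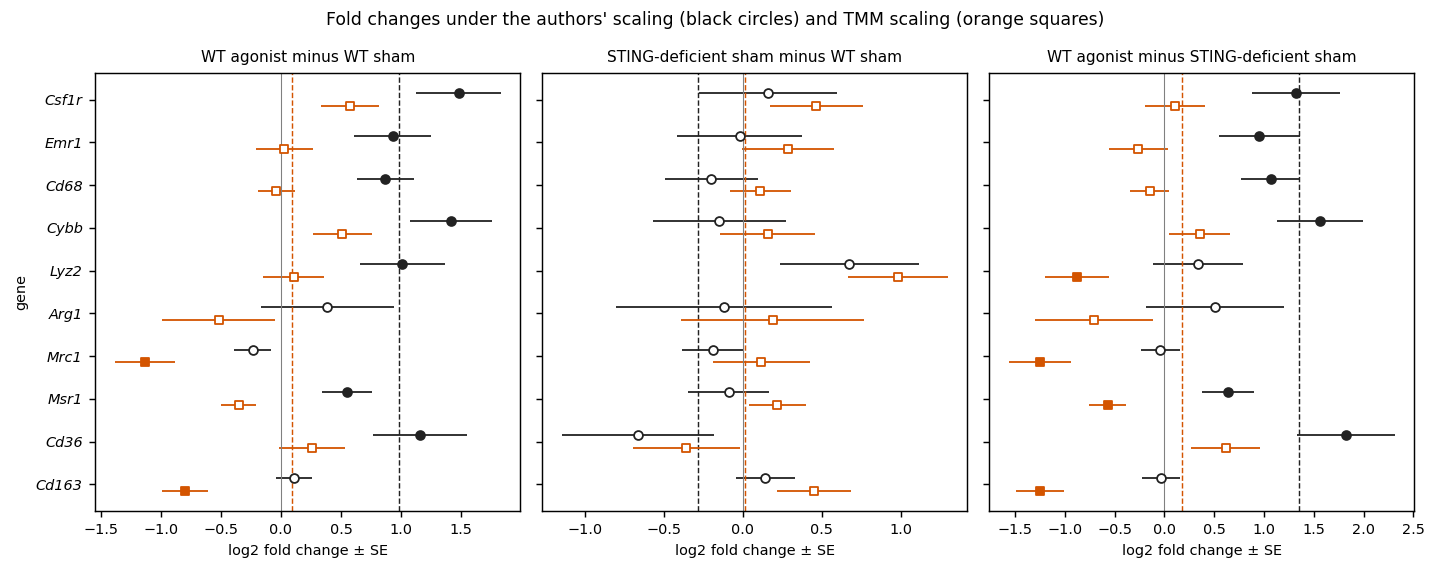
Log2 fold change ± SE of each gene in the 3 comparisons, with black circles for the authors' scaling and orange squares for TMM scaling; filled symbols have an adjusted p under 0.05 and dashed lines mark the median of all tested probes under each scaling. In agonist minus wild-type sham, 7 filled circles lie above 0 and 2 filled squares (Mrc1 at -1.13 and Cd163 at -0.79) lie below it.

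Without agonist replicates 6 to 8 none of the 10 genes passed, and 0.435% of tested probes were called higher (limma). An unadjusted p under 0.05 was found for 3 of the 10 genes and for 333 of the 689 tested probes. In that fit the log2 fold changes nearest to the threshold were 0.82 for Csf1r (adjusted p = 0.0536), 0.59 for Cd68 and 0.91 for Cybb (adjusted p = 0.0599 for both), and that of Cd163 was -0.15 (adjusted p = 0.307). Within the remaining 5 agonist libraries, replicates 1 and 3 kept all 5 general macrophage genes above their sham means, and replicates 4 and 5 had Emr1 values of 351 and 323 and Lyz2 values of 4450 and 5217.

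To set the activation and scavenging genes against macrophage content as these genes report it, the mean log2 value of the 5 general macrophage genes was subtracted from every probe in each library and the model was fitted again. On this scale Mrc1 and Cd163 were lower after agonist by 1.37 and 1.03 log2 units, and Arg1, Msr1 and Cd36 did not pass. Mrc1 had wild-type sham values of -2.29, -1.49 and -0.70 (lowest, median, highest) and agonist values of -4.48, -2.83 and -1.52. All 8 agonist libraries lay below the sham mean and 5 lay below the lowest sham library, and the fitted difference was -1.37 (SE 0.34, adjusted p = 0.0260). Cd163 had wild-type sham values of 1.15, 1.80 and 2.10 and agonist values of -0.58, 0.89 and 1.54. Again all 8 lay below the sham mean, 6 of them below the lowest sham library, and the fitted difference was -1.03 (SE 0.25, adjusted p = 0.0260). These 2 of 5 tested genes stand beside 15.5% of probes called lower on this scale.

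Msr1 had wild-type sham values of -0.26, 0.18 and 0.44 (lowest, median, highest) and agonist values of -1.84, -0.28 and -0.066. All 8 agonist libraries lay below the sham mean, and the difference was -0.59 (SE 0.21, adjusted p = 0.0544). Arg1 gave -0.75 (SE 0.52, adjusted p = 0.334) and Cd36 gave 0.021 (SE 0.24, adjusted p = 0.966). The relative values of Cd36 ran from -3.02 to -1.23 in wild-type sham and from -2.62 to -1.53 in agonist libraries, so the agonist range lay inside that of the sham libraries.

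Both relative calls were close to the threshold. Mrc1 and Cd163 lost them, with an adjusted p of up to 0.0662, when wild-type sham replicate 6, sham replicate 9, agonist replicate 1 or agonist replicate 7 was left out. Msr1 gained a call, with an adjusted p down to 0.0313, without sham replicate 1 or without agonist replicate 2, 4 or 5. It also passed with the higher filter of at least 50 (adjusted p = 0.0423), with Emr1 or Lyz2 left out of the reference (0.0334 and 0.0382) and with Csf1r alone as the reference (-0.93, adjusted p = 0.0166), and its difference was -0.39 without agonist replicate 8. Without agonist replicates 6 to 8 the differences were -0.86 for Mrc1 and -0.77 for Cd163 (adjusted p = 0.247 for both), 0 of 5 genes passed, and 2 of 5 had an unadjusted p under 0.05. The share of all probes with such an unadjusted p in this fit is not given here, so that count has no background to be read against. In that fit 0 of all 689 probes were called higher and 0 lower, so every call on the panel was lost.

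**Figure D3:**
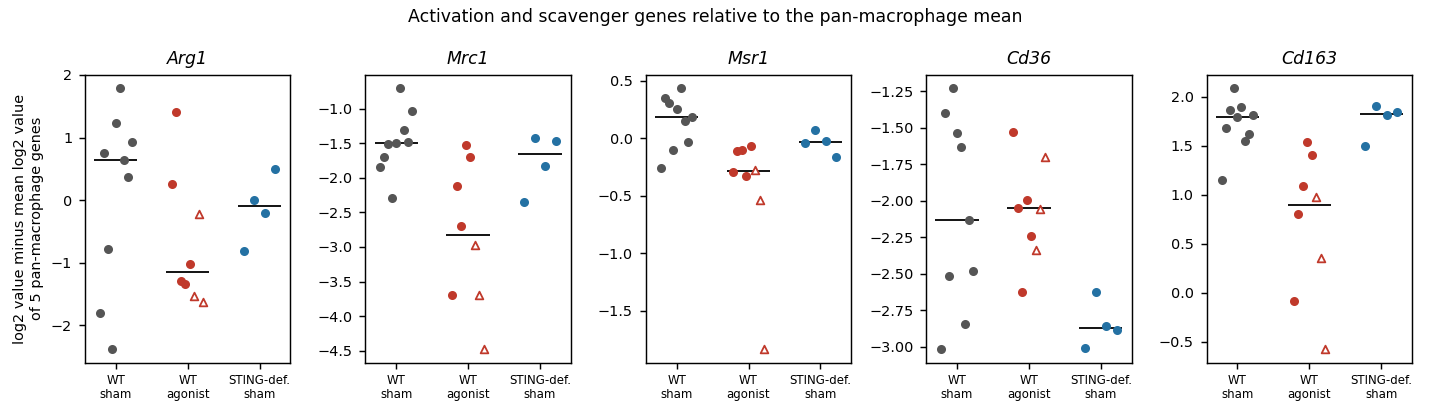
Log2 value of the 5 genes minus the mean log2 value of the 5 general macrophage genes in each library, by group, with a bar at the group median; open triangles are agonist replicates 6 to 8. All 8 agonist libraries lie below the wild-type sham mean for Mrc1, Msr1 and Cd163, and agonist replicate 8 is the lowest for these 3 genes (-4.48, -1.84 and -0.58).

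Other genes of macrophage biology were read from lists that were chosen with earlier results known. Each count stands beside the 71.1% of tested probes called higher under the authors' scaling. With TMM scaling, 9% of tested probes were called higher and 18% lower. Of growth factor and lineage genes, 5 of 10 tested were higher with a median log2 fold change of 0.70. They include Csf2rb, the shared receptor chain for GM-CSF, at 142 ± 33.3 (SD, n = 9) in wild-type sham and 475 ± 300 (n = 8) in agonist libraries (adjusted p = 0.00276, and 0.0363 with TMM scaling), and Irf8, a transcription factor of monocytes and dendritic cells, at 88.9 ± 25.2 and 256 ± 154 (adjusted p = 0.00276, and 0.0904 with TMM scaling). With TMM scaling 1 gene of this list was higher and 3 were lower. Of monocyte recruitment and surface genes, 10 of 15 were higher (median 1.07), and 1 with TMM scaling. Itgam, the integrin chain CD11b of myeloid cells, read 180 ± 31.1 in wild-type sham and 554 ± 421 in agonist libraries (adjusted p = 0.00486, and 0.207 with TMM scaling).

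Of 17 other scavenger and uptake receptors, 14 were higher (median 0.86), and with TMM scaling none was higher and 1 was lower. Mertk, a receptor for dying cells, read 40.5 ± 10.2 in wild-type sham and 128 ± 105 in agonist libraries (adjusted p = 0.00441, and 0.151 with TMM scaling). Cxcl16, a chemokine that also binds oxidised lipoprotein, read 282 ± 75.1 and 604 ± 295 (adjusted p = 0.00516, and 0.786 with TMM scaling). Cd5 and Cd6, members of this list by their scavenger receptor domains, are known from T cells and were also higher (adjusted p = 0.00295 for both, and 0.0684 and 0.0632 with TMM scaling). Of the partners of Cd36 in lipid handling, 10 of 11 were higher (median 1.15), and with TMM scaling none was higher and 1 was lower. The cholesterol exporter Abca1 read 314 ± 92.6 in wild-type sham and 1095 ± 946 in agonist libraries (adjusted p = 0.00396, and 0.102 with TMM scaling), and the lipoprotein gene Apoe read 3047 ± 1203 and 13754 ± 14632 (adjusted p = 0.00441, and 0.114 with TMM scaling).

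Genes of both kinds of activation were higher under the authors' scaling, 15 of 21 on the IL-4 and alternative list (median 0.92) and 16 of 19 on the classical list (median 1.29). With TMM scaling the alternative list had 2 higher and 2 lower and the classical list had 1 higher. Ccl17, a chemokine induced by IL-4, read 45.5 ± 12.4 in wild-type sham and 175 ± 116 in agonist libraries (adjusted p = 0.00193, and 0.0103 with TMM scaling). Il10ra, a chain of the IL-10 receptor, read 77.1 ± 23.0 and 234 ± 148 (adjusted p = 0.00276, and 0.0756 with TMM scaling). On the classical list, Cd40, a costimulatory receptor, read 48.6 ± 7.20 and 159 ± 76.2 (adjusted p = 0.00276, and 0.0135 with TMM scaling), and Cd86, a ligand of CD28, read 117 ± 22.8 and 326 ± 161 (adjusted p = 0.00276, and 0.0573 with TMM scaling). Of phagocyte oxidase and lysosome genes, the partners of Cybb and Cd68, 8 of 11 were higher (median 0.54), while with TMM scaling none was higher and 4 were lower. The oxidase subunit gene Ncf4 read 216 ± 26.7 and 500 ± 274 (adjusted p = 0.00396, and 0.589 with TMM scaling) and the lysosomal protease gene Ctss read 1225 ± 224 and 3822 ± 3015 (adjusted p = 0.00486, and 0.283 with TMM scaling). Without agonist replicates 6 to 8, 1 gene of these 7 lists passed, on the alternative list, beside 0.435% of tested probes called higher.

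Markers of other cells that use some of the 10 genes moved in the same libraries, and their part in the results was not tested. Neutrophils use Cybb, Lyz2 and Arg1, and 8 of 12 neutrophil markers were on the panel, with Ltf, Elane and Mpo at means under 20 and none at 0. Their summed value was 2418 to 9149 in wild-type sham, 3565 to 27687 in agonist and 1518 to 2608 in STING-deficient libraries. Agonist replicate 2 had the highest sum and also the highest Arg1 value (2568), while its Emr1 value (336) lay within the sham range. Agonist replicate 6 had the next highest sum, 14037, with an Arg1 value of 562 inside the sham range, and replicates 1 and 7 had Arg1 values of 2457 and 1974 with sums of 8671 and 8128. Endothelial cells use Cd36 and, in some vessels, Mrc1, and 9 of 11 endothelial markers were on the panel, none at 0. They summed to 708 to 1207 in wild-type sham, 776 to 6621 in agonist and 516 to 1103 in STING-deficient libraries, and the highest sum was in agonist replicate 8, which also had the highest Cd36 value (1438). That library had the highest total over all probes (888242). Its sums were also the highest for macrophage, dendritic, T cell, NK cell, B cell and epithelial markers, but not for neutrophil, mast cell or platelet markers.

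Platelets and adipocytes, which also use Cd36, were poorly covered. Of 6 platelet and red cell markers 2 were on the panel, Itga2b and Ppbp, with sums of 30.6 to 552 in wild-type sham, 64.4 to 831 in agonist and 60.9 to 84.6 in STING-deficient libraries, and of 5 adipocyte markers only Pparg was on it, at 11.4 to 29.6, 9.68 to 245 and 6.64 to 11.1. Dendritic markers, 6 of 10 on the panel with Xcr1 and Ccr7 at means under 20 and none at 0, summed to 137 to 225, 180 to 753 and 101 to 231. Fibroblast and pericyte markers, 6 of 10 on the panel and none at 0, summed to 12380 to 31392, 8131 to 203875 and 11441 to 29668, with the highest sum again in agonist replicate 8. Of the lymphoid, mast cell and epithelial markers, 9 of 9 T cell, 5 of 5 NK cell, 3 of 4 B cell, 2 of 4 mast cell and 3 of 3 epithelial and tumor genes tested were higher after agonist under the authors' scaling, and 6, 2, 2, 0 and 0 were higher with TMM scaling.

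The second comparison asks whether the tumors differed at baseline when the host lacked working STING. None of the 10 genes passed the test between STING-deficient sham and wild-type sham (limma), and 2.76% of tested probes were called, all of them lower. None of the 10 had an unadjusted p under 0.05, as 64 of the 689 tested probes did. The log2 differences ran from -0.66 for Cd36 to 0.67 for Lyz2, beside a median of -0.28 over all tested probes. With TMM scaling 0 of 10 passed, beside 2.47% of probes called, all lower. An unadjusted p under 0.05 was found there for 1 of 10, Lyz2, beside 73 of the 689 tested probes.

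Lyz2 read 13823, 8292, 8311 and 10235 in the 4 STING-deficient libraries. All 4 lay above the wild-type sham mean of 6416, and 1 exceeded the highest sham library, 10743. The log2 difference was 0.67 (SE 0.44, adjusted p = 0.652) and higher than that of 99.9% of the tested probes. It was 0.98 with TMM scaling (adjusted p = 0.126), and it passed when the fit held the 2 sham groups alone, whose libraries spread less than the agonist libraries (0.67, adjusted p = 0.0417). In that fit 2 of the 689 tested probes were called higher and 80 lower, beside 0 and 19 in the main fit.

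Cd36 read 111, 86.6, 90.8 and 92.9 in the STING-deficient libraries, of which 3 lay below the lowest wild-type sham value, 93.0. The log2 difference was -0.66 (SE 0.48, adjusted p = 0.667). Relative to the general macrophage genes all 4 libraries lay below the sham mean, between -3.01 and -2.62, and the difference was -0.76 (SE 0.30, adjusted p = 0.170). On that scale 0 of 5 genes passed, beside 5.99% of probes called at the adjusted threshold, all lower. Of the 5, only Cd36 had an unadjusted p under 0.05, and the share of all probes with such a p on that scale is not given here.

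The other 8 genes ran within or close to the wild-type sham ranges. Csf1r read 513, 273, 397 and 384 in the STING-deficient libraries, Emr1 read 326, 282, 321 and 450, and Cd68 read 800, 734, 832 and 867. Cybb read 308, 96.1, 146 and 103, with replicate 1 just above the highest sham value of 303. Thus for Cybb 1 library stood apart from the other 3, and the same library had the highest Csf1r, Lyz2, Msr1, Cd36 and Cd163 values of its group. Arg1 read 507, 540, 578 and 974, Mrc1 read 175, 201, 186 and 249, Msr1 read 868.7, 567.7, 652.1 and 618.7, and Cd163 read 2537, 2026, 2334 and 2499. Csf1r, Emr1, Arg1, Mrc1 and Cd163 stayed inside the sham ranges in all 4 libraries.

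The third comparison sets the wild-type agonist tumors against the STING-deficient sham tumors, which differ in both host and treatment, and it shares the agonist libraries with the first comparison and the STING-deficient libraries with the second. Cd36, Cybb, Csf1r, Cd68, Emr1 and Msr1 were higher in the agonist tumors under the authors' scaling, 6 of 10 genes beside 73.6% of tested probes, and with TMM scaling none was higher and 4 (Lyz2, Mrc1, Msr1 and Cd163) were lower, beside 17.9% of probes called higher and 22.4% called lower. Cd36 gave the highest fold change of the 10 genes, 3.54-fold (log2 1.82, SE 0.49, adjusted p = 0.00384), and all 8 agonist libraries (143 to 1438) lay above all 4 STING-deficient libraries (86.6 to 111), as was true of 16.5% of tested probes. With TMM scaling the Cd36 difference was 0.62 (adjusted p = 0.157).

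Cybb was 2.95-fold higher (log2 1.56, SE 0.43, adjusted p = 0.00423), Csf1r higher by 1.32 on the log2 scale (adjusted p = 0.0129), Cd68 2.09-fold (adjusted p = 0.00485), Emr1 1.93-fold (adjusted p = 0.0400) and Msr1 1.56-fold (adjusted p = 0.0321). Lyz2 did not pass (log2 0.34, SE 0.45, adjusted p = 0.498), and its agonist range of 4450 to 47652 enclosed the STING-deficient range of 8292 to 13823. Arg1 (0.51, adjusted p = 0.509), Mrc1 (-0.044, adjusted p = 0.840) and Cd163 (-0.032, adjusted p = 0.875) did not pass either. Emr1 lost its call, with an adjusted p of up to 0.103, when agonist replicate 1, 6, 7 or 8 or STING-deficient replicate 1, 2 or 3 was left out. Msr1 lost its call, with an adjusted p of up to 0.0973, when agonist replicate 1, 6 or 7 or STING-deficient replicate 2, 3 or 4 was left out. Without agonist replicates 6 to 8, 3 of the 10 genes passed beside 53.8% of probes called higher, and Csf1r, Emr1 and Msr1 did not (adjusted p = 0.0665, 0.237 and 0.193).

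Relative to the general macrophage genes, Cd163 was lower in the agonist tumors by 1.08 log2 units (SE 0.32, adjusted p = 0.0230), 1 of 5 tested genes beside 3.65% of probes called lower. The 4 STING-deficient libraries ran from 1.503 to 1.909 and the 8 agonist libraries from -0.58 to 1.543, so the groups overlapped at their ends. The call was lost without STING-deficient replicate 2, 3 or 4, with an adjusted p of up to 0.0787. Mrc1 gave -1.09 (SE 0.43, adjusted p = 0.0712) and Cd36 gave 0.78 (SE 0.31, adjusted p = 0.0730). Msr1 (-0.41, adjusted p = 0.254) and Arg1 (-0.54, adjusted p = 0.526) did not pass.

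Covariation within groups was described on TMM-scaled log2 values with group means subtracted, over 21 libraries that share this scaling, so correlations carry no p-value. The groups spread unequally. The mean of the 5 general macrophage genes on this scale had SD 0.19 in wild-type sham, 0.55 in agonist and 0.062 in STING-deficient libraries. Each r therefore rests largely on the agonist libraries. Agonist replicate 8 read 10.87 beside an agonist mean of 9.85, and r without it was not computed. The 10 pairs among the 5 general macrophage genes had Pearson r from -0.065 (Cd68 and Cybb) to 0.86 (Csf1r and Lyz2), with a median of 0.49. Their 25 pairs with the other 5 genes had a median of 0.02 and ran from -0.49 (Csf1r and Mrc1) to 0.68 (Csf1r and Cd36), and over all pairs of tested probes the median was -0.015. Mrc1 and Cd163 had r = 0.53 with each other, Arg1 and Cd163 had -0.52, and Cd36 and Mrc1 had -0.52.

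**Figure D4:**
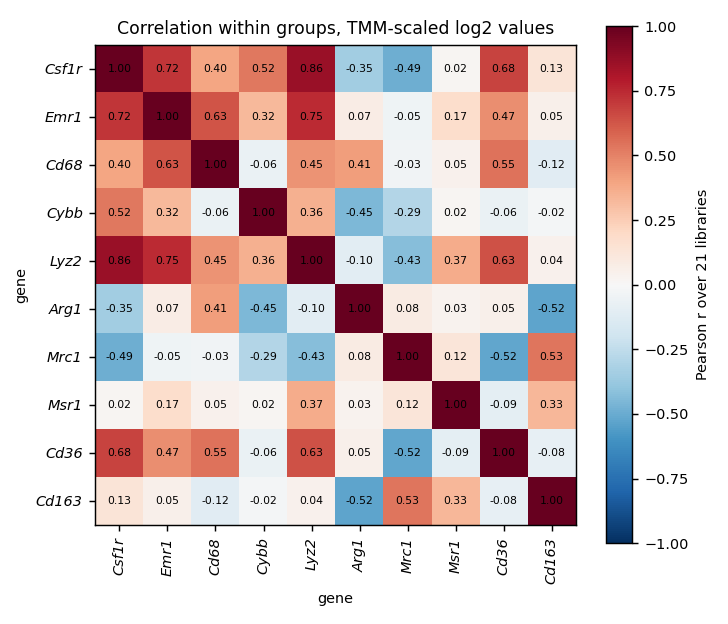
Pearson correlation between the 10 genes over 21 libraries, on TMM-scaled log2 values after subtraction of group means; rows and columns are genes and the color scale runs from -1 to 1. Csf1r, Emr1 and Lyz2 form a block with r from 0.72 to 0.86, and Cd36 joins it with r from 0.47 to 0.68 while Mrc1 is at or below -0.05 with each of the 3.

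The panel genes whose pattern was most like each member were named by the highest r over the 21 libraries. For Csf1r they were C3ar1 (0.92), a complement receptor of myeloid cells, Il2rg (0.92), a cytokine receptor chain, and Mef2c (0.89), a transcription factor. For Emr1 they were C1qb (0.89), a chain of complement C1q, Cd48 (0.87) and Cfp (0.85). For Cd68 they were Trem2 (0.83), a lipid receptor of macrophages, Cd37 (0.81) and Abca1 (0.74). Lyz2 ran with Tlr8 (0.91), C3ar1 (0.89) and Abcg1 (0.88), and Cybb ran with Slamf6 (0.86), Tlr9 (0.85) and H2-K1 (0.85), which are genes of lymphocytes, of nucleic acid sensing and of antigen presentation.

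Arg1 ran with Bst1 (0.84), Ppbp (0.79), a platelet chemokine, and C5ar1 (0.79), a receptor of neutrophils and monocytes. Cd36 ran with Cd200 (0.76), Abcg1 (0.73), a cholesterol exporter, and Ctsh (0.72). Among the closest probes to Mrc1 were Atf2 (0.89) and Ets1 (0.88), and among those to Cd163 were Psmd7 (0.91) and Itgb1 (0.90), which are expressed in many cell types. Deposited Mrc1 values spanned only 158 to 222 in the agonist libraries, whose TMM scale spanned 0.77 to 2.49. All probes of a library are divided by the same scale, and its part in these correlations was not tested. Msr1 had no close neighbour, its highest being Vegfc (0.54), Fcgr2b (0.51) and Hmgb1 (0.49).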

How the data were processed

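Whole-tumor RNA in 21 libraries was measured on a NanoString panel of 750 probes. The deposited values are the authors' normalised signal, linear and not logged, and how they were scaled is not given in the labels or headers. Group and replicate were taken from the sample titles. Each library's values were multiples of its own step (99.6% to 100% of values within 0.1 of a step), with totals in steps from 256573 to 763976, which set the counting precision. Agonist replicates 6, 7 and 8 were written with 2 decimals. No pair of libraries in a group agreed within sampling noise (lowest chi-square per degree of freedom 6.63).

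The test was limma 3.58.1 (R 4.3.3; lmFit and eBayes with trend and robust) on log2(value + 1), with a mean for each of 3 groups over 21 libraries, for the 689 probes with a value of at least 20 in at least 4 libraries, two-sided, with Benjamini-Hochberg adjustment at 0.05. TMM factors were computed with trims of 30% and 5%, unweighted. The 2 blank cells, both of Hif1a, were left missing. The limma fit was checked on simulated data with independent noise, the same spread in every group and no shift shared by a library. That check does not cover the wider spread and general upward shift of the agonist libraries. The genes named are the 10 members, Tmem173, up to 4 genes per list by adjusted p and the 3 probes most correlated with each member, in part, and some are not reported here. The members and lists were chosen with earlier results of these data known. Replicate numbers were not used to pair libraries in the main fit, since the labels do not state a pairing. Deviations of libraries with the same number correlated from -0.20 to 0.61, which does not settle whether they are paired. Alternatives were the scaling, filter, pseudocount, groups fitted, replicate block, reference genes and each library left out.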

Additional observations from a re-analysis of the deposited data

Results flagged for a closer look

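Of 48 sets of values (each gene in each group, on the log2 scale and relative to the general macrophage genes) 3 held a library farther from its neighbours than the 95% limit of Dixon's ratio, where chance gives about 1 in 20. Wild-type sham replicate 4 was low for Mrc1, at 7.14 on the log2 scale with the next library at 7.75, and high for Cd163, at 11.5 with the next at 11.2. Without this library the agonist difference of Mrc1 was -0.32 with an adjusted p of 0.0466, past the threshold. Agonist replicate 8 was low for Msr1 relative to the general macrophage genes, at -1.84 on the log2 scale with the next library at -0.54.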

How the results depend on the processing

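Of the counts of genes called, 164 values stayed within 1.5 times the main count and 22 moved. Of single-gene values, 1213 kept direction and side of the threshold. With direction kept, 57 lost a call and 21 gained one. The other 74 turned sign and are counted only there, also where a call was lost or gained, as for Cd163 with TMM scaling. The planned count-model alternatives (edgeR) were not run, since the deposited values could be taken as whole counts for only some libraries. Causes of the changes below were not tested.

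In agonist against wild-type sham, the 7 genes called became 2 (both lower) with TMM scaling, 0 without agonist replicates 6 to 8, 0 with both changes, and 6 to 8 with a library left out. Of the 689 tested probes, 490 were called higher and 5 lower in the main fit. These counts were 62 and 124 with TMM scaling, 3 and 0 without agonist replicates 6 to 8, and 0 and 0 with both changes. TMM scaling turned Cd68 to -0.038, Arg1 to -0.52, Msr1 to -0.35 and Cd163 to -0.79, the absence of replicates 6 to 8 turned Cd163 to -0.15, and both together turned Emr1 to -0.28, Cd68 to -0.073, Lyz2 to -0.26, Arg1 to -0.52, Msr1 to -0.36, Cd36 to -0.038 and Cd163 to -0.81. The 2 relative calls became 0 without replicates 6 to 8, where 0 of all 689 probes were called, and 0 to 3 with a library left out. Relative Cd36, near 0, turned to -0.0027 with a pseudocount of 10, -0.029 with the replicate block, -0.0012 without replicates 6 to 8, -0.031, -0.047 and -0.012 without Emr1, Cd68 or Lyz2 in the reference, -0.32 with Csf1r alone as reference, and -0.095 to 0.13 with a library left out.

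In STING-deficient against wild-type sham, 0 genes called became 1 (Lyz2) with only the 2 groups fitted and 1 (Lyz2, 0.999, adjusted p = 0.0454) with TMM scaling and no agonist replicates 6 to 8, and stayed 0 with any library left out, as did the relative calls. Of the 689 tested probes, 0 were called higher and 19 lower in the main fit. These counts were 2 and 80 with only the 2 groups fitted, and 2 and 17 with TMM scaling and no agonist replicates 6 to 8. TMM scaling turned Emr1 to 0.29, Cd68 to 0.11, Cybb to 0.16, Arg1 to 0.19, Mrc1 to 0.12 and Msr1 to 0.22, and with replicates 6 to 8 also left out these were 0.30, 0.13, 0.17, 0.21, 0.13 and 0.24. The replicate block turned Emr1 to 0.20, Arg1 to 0.40, relative Arg1 to 0.20 and relative Cd163 to -0.0082. Relative Cd163 was -0.023 and -0.011 without Cd68 or Cybb in the reference and -0.016 with Csf1r alone. With a library left out, Emr1 ran from -0.15 to 0.069, Cybb from -0.51 to 0.048, Arg1 from -0.42 to 0.055, relative Arg1 from -0.52 to 0.017 and relative Cd163 from -0.022 to 0.14.

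In agonist against STING-deficient sham, the 6 genes called became 3 with only the 2 groups fitted, 3 with the replicate block (Csf1r at adjusted p = 0.0502, Emr1 and Msr1 lost), 3 without agonist replicates 6 to 8, and 4 to 6 with a library left out. Of the 689 tested probes, 507 were called higher in the main fit. This count was 362 with only the 2 groups fitted, 401 with the replicate block and 371 without agonist replicates 6 to 8. The labels do not say whether replicate numbers pair these libraries. TMM scaling turned Emr1 to -0.26, Cd68 to -0.15, Lyz2 to -0.88, Arg1 to -0.71 and Msr1 to -0.57, the absence of replicates 6 to 8 turned Lyz2 to -0.28, and both together turned Csf1r to -0.31, Emr1 to -0.59, Cd68 to -0.20, Lyz2 to -1.26, Arg1 to -0.72 and Msr1 to -0.60. With a library left out, Mrc1 ran from -0.11 to 0.059 and Cd163 from -0.10 to 0.029. The 1 relative call became 0 with only the 2 groups fitted, 2 without Cybb or without Lyz2 in the reference, and 0 to 2 with a library left out. Over all 689 probes, reference genes included, 106 were called higher and 26 lower on that scale in the main fit. These counts were 56 and 0 with only the 2 groups fitted, 138 and 11 without Cybb, and 79 and 86 without Lyz2.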
